A study of Arabidopsis thaliana with 6 samples.

Results

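The HAIKU pathway of endosperm growth is represented here by 5 genes, taken by identifier from a table of 31608 genes and loci: IKU1 (AT2G35230), IKU2 (AT3G19700), MINI3 (AT1G55600, listed as WRKY10), SHB1 (AT4G25350, listed without a symbol) and CKX2 (AT2G19500). Their transcripts were measured by sequencing polyA RNA from whole siliques of the mee45-1 mutant and of Col-0, the wild-type accession, both collected 4 days after pollination, in 3 libraries of each genotype. The labels call the material both silique and seed, and they give neither the nature of the mee45-1 lesion nor the genotype of the pollen. Each value below is the authors' mean over the 3 libraries of a genotype, so no replicate SD can be given; an interval beside a value is an exact 95% interval on the summed counts, which covers counting error only. Whether the repeats were separate plantings is not stated, and the authors' p-values then reflect library-to-library spread that may be technical. The words rose and fell are used of mee45 for genes that the authors' deposited table lists with an adjusted p under 0.05, and log2 values compare the mean FPKM of mee45 with that of Col-0, above 0 where mee45 is higher.

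In Arabidopsis the endosperm first grows as a syncytium of nuclei and then forms cell walls, and the time of this switch is tied to how large the seed becomes. HAIKU genes act in the endosperm after fertilization, and their loss brings early wall formation and small seeds. IKU1 encodes a protein with a VQ motif that binds the WRKY transcription factor MINI3, SHB1 encodes a protein with SPX and EXS domains that joins MINI3 at target promoters, IKU2 encodes a leucine-rich repeat receptor kinase of the seed that MINI3 activates, and CKX2 encodes an enzyme that degrades cytokinin and acts downstream of the others. MEE45 encodes a B3-domain protein; its transcript (AT4G00260) had 3 summed counts in the mee45 libraries against 62 in the Col-0 libraries, or 4.77% of Col-0 after scaling to total counts (95% counting interval 0.958% to 14.6%).

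WRKY factors bind the W box, whose core is TTGAC, and MINI3 is known to act on its own gene, on IKU2 and on CKX2. The sequences upstream of these 3 genes are therefore shown, from the TAIR10.1 assembly, each read 5′ to 3′ on the strand of its gene and with the core in capitals where it occurs on either strand (TTGAC or GTCAA). The MINI3 stretch is the 250 bases before the annotated gene start (chr1:20776295-20776544, minus strand), the CKX2 stretch is likewise the 250 bases before the start (chr2:8447356-8447605, minus strand), and the IKU2 stretch is 100 bases that end 321 bases before the start (chr3:6843242-6843341, plus strand), since its nearer 250 bases hold no core.
MINI3: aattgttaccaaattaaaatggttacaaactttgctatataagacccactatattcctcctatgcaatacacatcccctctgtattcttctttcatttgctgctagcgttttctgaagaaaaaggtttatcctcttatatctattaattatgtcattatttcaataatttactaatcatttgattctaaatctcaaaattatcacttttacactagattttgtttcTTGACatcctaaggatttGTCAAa
CKX2: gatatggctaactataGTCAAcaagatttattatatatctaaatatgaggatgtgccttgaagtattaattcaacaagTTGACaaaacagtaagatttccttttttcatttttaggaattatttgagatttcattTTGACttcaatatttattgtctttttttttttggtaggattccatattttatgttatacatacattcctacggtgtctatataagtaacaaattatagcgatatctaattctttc
IKU2: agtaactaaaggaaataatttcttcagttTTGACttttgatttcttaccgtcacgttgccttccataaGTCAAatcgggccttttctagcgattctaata

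In its 250 bases upstream, CKX2 held 3 matches of the core, MINI3 2, SHB1 1, and IKU1 and IKU2 0. Of 27443 protein-coding genes on the 5 nuclear chromosomes, 44.9% held at least 1 match in that window, 14.1% at least 2 and 3.38% at least 3. Over 1000 bases upstream SHB1 held 7 matches, CKX2 4, MINI3 3, IKU2 3 and IKU1 2, where the median gene held 2 and 1.45% of genes held 7 or more. The annotated start of IKU2 coincides with its start codon and that of MINI3 lies 1 base before it, so these windows may include transcribed sequence. A match is a description of letters and not a binding site.

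**Figure D1:**
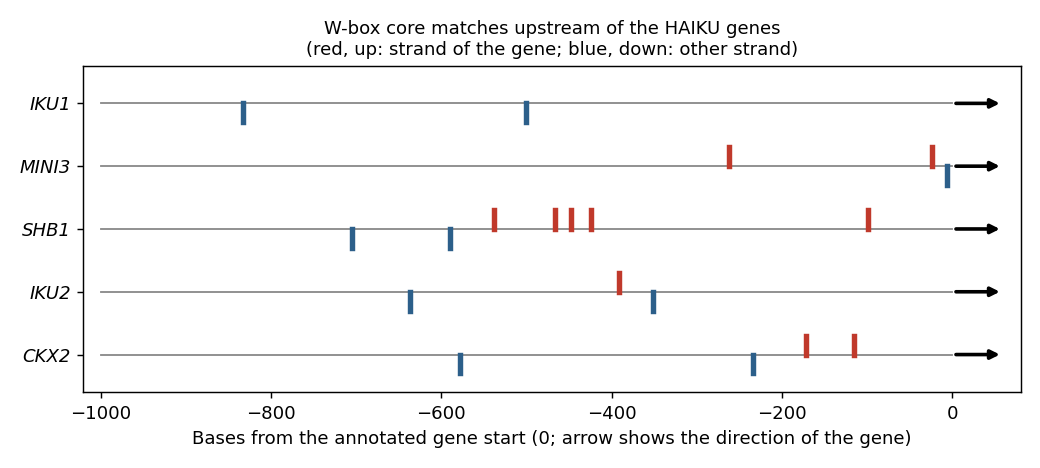
Positions of the W-box core TTGAC in the 1000 bases before the annotated start of each HAIKU pathway gene; the horizontal axis gives bases from the start, and ticks point up for the strand of the gene and down for the other strand. CKX2 and MINI3 carry 3 and 2 matches in their nearest 250 bases, and the 7 matches of SHB1 lie mostly farther upstream.

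Of the 5 HAIKU pathway genes, MINI3 and CKX2 rose in mee45, 0 fell, and IKU1, IKU2 and SHB1 did not pass the test. The background is that 6.67% of the 25434 genes tested were called higher and 9.15% lower, 15.8% in all. The log2 value was above 0 for 5 of 5 members, against 50.1% of all genes tested. These 5 include IKU1, IKU2 and SHB1, which did not pass the test, and 5 genes are too few to set against that share. The members' median was 0.76 beside 0.00071 over all genes tested. That median is the value of CKX2, with the scarce IKU2 and SHB1 above it, and with log2(FPKM + 1) it was 0.09, with log2(FPKM + 0.1) 0.58. The authors' own significance column, which marks 6.34% of genes and takes only changes of more than 2-fold, marks 0 of the 5. Siliques hold seeds and fruit wall together, so a difference in the number of endosperm cells and one in RNA per cell cannot be told apart in any of these values.

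CKX2, the cytokinin oxidase at the end of the pathway, was the most abundant member and its rise had the smallest p. Its mean was 43.4 FPKM in mee45 and 25.6 FPKM in Col-0, from mean counts of 1482 and 871.3. The counting intervals, 42.1 to 44.6 FPKM in mee45 and 24.7 to 26.6 FPKM in Col-0, do not overlap. This is a log2 value of 0.76, a 1.69-fold higher level in mee45, and the authors' deposited table lists 3.69e-05 as its adjusted p. By p it stood at rank 1083 of all genes tested, while by size 737 of the 1696 genes that rose had a larger log2 value.

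CKX2 lies on chromosome 2 from 8444204 to 8447355 on the minus strand in TAIR10.1, with 5 annotated exons and a coding sequence for 501 residues. Its last exon shares 30 bases with RECA2 (AT2G19490), a RecA-type recombination gene on the opposite strand, which had 4.99 FPKM in mee45 and 4.64 FPKM in Col-0 and did not pass the test. Its first exon lies within 666 bases shared with AT2G00640, an untranslated RNA of the opposite strand that was not analysed here. No source used here states whether counting used strand, so reads of CKX2 and of that RNA cannot be told apart where they overlap.

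MINI3, the WRKY factor of the pathway, rose by a like factor from a much lower level. Its mean was 2.44 FPKM in mee45 (counting interval 2.13 to 2.78) and 1.47 FPKM in Col-0 (1.23 to 1.74). The summed counts were 220 in mee45 and 131 in Col-0, again with intervals that do not overlap. The log2 value was 0.73, a 1.66-fold higher level in mee45, and the authors' deposited table lists 0.0406 as its adjusted p, close to the threshold. Among the 824 tested genes whose summed count over both genotypes lay within 1.2-fold of that of MINI3, 55 were called higher, and the log2 value of MINI3 was the smallest of these. Within 1.5-fold, 143 of 1849 genes were called higher, from a log2 value of 0.64 upwards. CKX2 stood at 17.8 times the FPKM of MINI3 in mee45 and 17.4 times in Col-0, and whether their 2 changes differ was not tested. MINI3 lies on chromosome 1 from 20774046 to 20776294, minus strand, with 5 exons and 485 residues, and no annotated gene overlaps it.

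IKU1, whose VQ protein partners MINI3, was nearly level between the genotypes. Its mean was 13.3 FPKM in mee45 (counting interval 12.7 to 13.9) and 12.9 FPKM in Col-0 (12.2 to 13.5), and these intervals overlap. The summed counts, 1739 in mee45 and 1666 in Col-0, give a fold of 1.03 with a counting interval of 0.962 to 1.10. That interval, which holds counting error only, lies below the 1.66-fold of MINI3 and the 1.69-fold of CKX2. The authors' deposited table lists 0.945 as its adjusted p, and among 2181 genes within 1.2-fold of its summed count log2 values down to 0.32 were called higher. IKU1 has 3 annotated transcripts that the gene-level values do not separate, on chromosome 2 from 14842291 to 14844465, plus strand, the longest form coding for 402 residues. CKX2 stood at 3.27 times the FPKM of IKU1 in mee45 and 1.99 times in Col-0.

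SHB1 and IKU2 were barely detected in either genotype. SHB1, the SPX-domain partner of MINI3, had a mean of 0.11 FPKM in mee45 and 0.04 FPKM in Col-0, from 15 and 5 summed counts. Its fold by counts at equal depth was 2.96, with a counting interval of 1.02 to 10.4, and the authors' deposited table lists 0.374 as its adjusted p. IKU2, the receptor kinase, had 0.0633 FPKM in mee45 and 0.02 FPKM in Col-0, from 13 and 4 summed counts, a fold of 3.20 (0.990 to 13.5), and the authors' deposited table lists 0.353 as its adjusted p. Their log2 values of 1.46 and 1.66 were the largest of the 5 members, but they rest on a few reads.

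**Figure D2:**
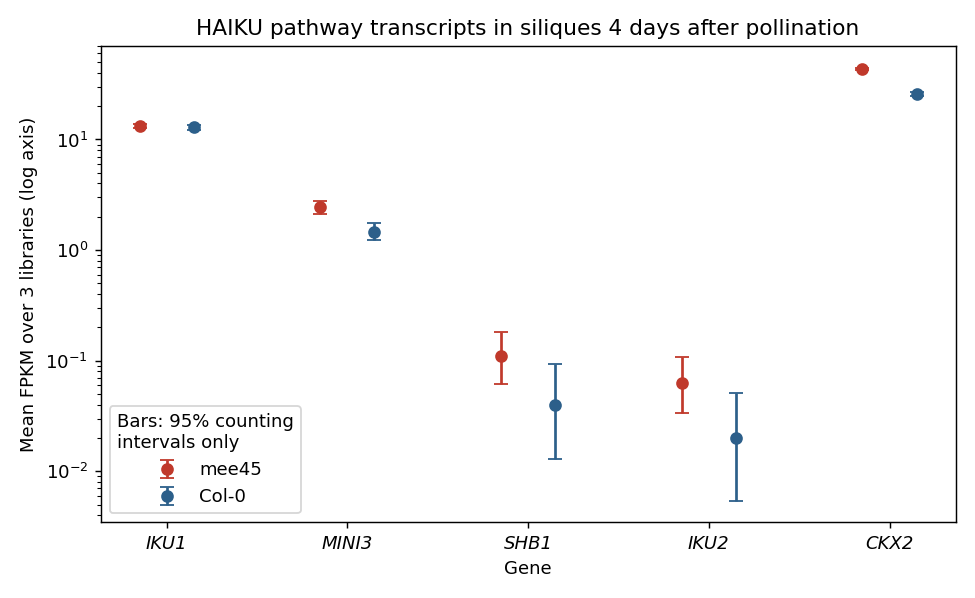
Mean FPKM of each HAIKU pathway gene on a log axis, mee45 left of Col-0, with bars for exact 95% counting intervals that hold no spread between libraries. CKX2 (43.4 and 25.6 FPKM) and MINI3 (2.44 and 1.47) have intervals that do not overlap, those of IKU1 overlap, and those of SHB1 and IKU2, with at most 15 summed counts, are wide and overlap.

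Few genes were called at the depth of SHB1 and IKU2. Of 407 tested genes with a summed count within 1.2-fold of that of IKU2, 9 were called higher, and the smallest change among them was 7.69-fold, or 4.88-fold among the 21 called of 880 genes within 1.5-fold. Of 452 genes within 1.2-fold of SHB1, 12 were called higher, from 4.88-fold upwards. SHB1 has 11 exons on chromosome 4 from 12962965 to 12966629, minus strand, and codes for 745 residues. IKU2 has 2 exons on chromosome 3 from 6843662 to 6847275, plus strand, and codes for 991 residues. The last 307 bases of IKU2 overlap BCAT4 (AT3G19710), an aminotransferase gene of glucosinolate synthesis on the opposite strand, which fell in mee45, with mean counts of 145.3 in mee45 and 370.3 in Col-0 (adjusted p = 3.72e-07 in the authors' deposited table). BCAT4 had more counts than IKU2 in both genotypes and a log2 value of the opposite sign (-1.38), and its part in the few counts of IKU2 was not tested.

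The order of the levels, per length, was the same in both genotypes: CKX2, IKU1, MINI3, SHB1 and IKU2. CKX2 stood above 87.1% of tested genes in mee45 and 76.4% in Col-0, IKU1 above 60.5% and 59.1%, MINI3 above 32.0% and 26.8%, SHB1 above 11.9% and 7.24%, and IKU2 above 9.42% and 4.95%. The counting intervals of SHB1 and IKU2 overlap in each genotype, so the order of this pair is not resolved, whereas all other neighbours in the order are separated.

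**Figure D3:**
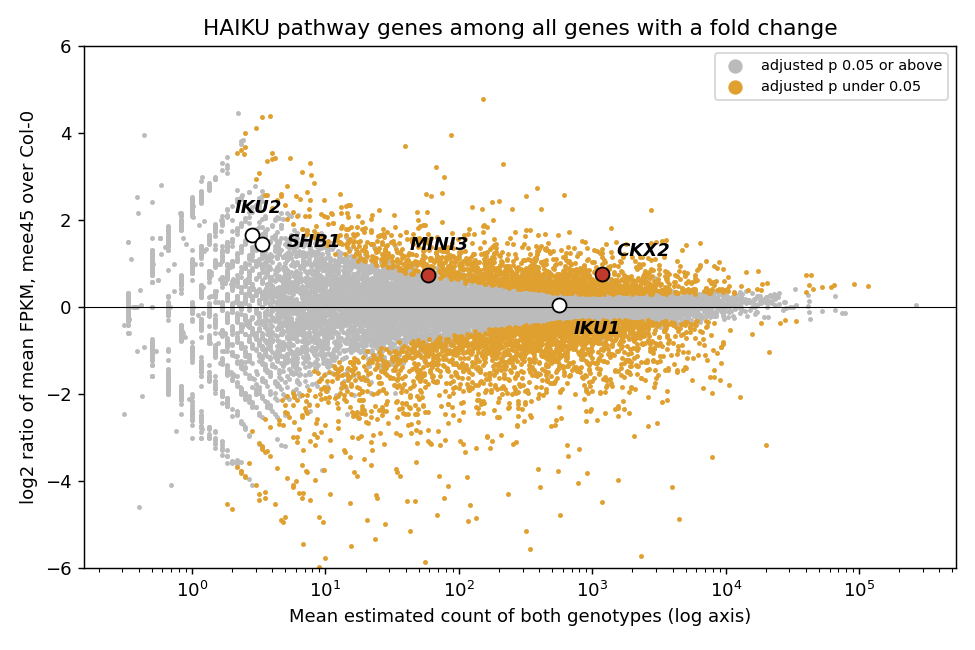
The log2 value of mean FPKM in mee45 over that in Col-0 against the mean estimated count of both genotypes (log axis) for 24030 genes, with 25 genes beyond 6 on the log2 scale not drawn. Filled large points (MINI3, CKX2) passed the test and open ones (IKU1, IKU2, SHB1) did not; IKU2 and SHB1 lie at the left edge, where only larger changes are called.

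A list of linked regulators held 17 genes known to act on the HAIKU pathway or beside it. In this list 1 was called higher, 3 lower and 13 neither, where 6.67% of all genes tested were called higher and 9.15% lower, and its median log2 value was 0.07. AGL62, a MADS-box repressor of endosperm wall formation, rose, with 7.41 FPKM in mee45 and 3.68 FPKM in Col-0 (log2 1.01, adjusted p = 5.28e-05 in the authors' deposited table). ZOU, the endosperm breakdown factor, fell to 10.2 FPKM in mee45 against 19.4 FPKM in Col-0 (log2 -0.93), and ICE1, its bHLH partner, fell to 71.1 FPKM in mee45 against 111.6 FPKM in Col-0 (log2 -0.65). BZR1, a brassinosteroid-response factor reported to act on SHB1, MINI3 and IKU2, fell slightly, with 34.0 FPKM in mee45 and 42.0 FPKM in Col-0 (log2 -0.31, adjusted p = 0.0444 in the authors' deposited table).

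Other direct regulators of the members did not pass the test. RAV1, a repressor of MINI3 and IKU2, had 270.3 mean counts in mee45 and 339.3 in Col-0 (log2 -0.34, adjusted p = 0.361 in the authors' deposited table). ABI5, a repressor of SHB1, had 268.7 mean counts in mee45 and 219 in Col-0 (log2 0.27, adjusted p = 0.355 in the authors' deposited table). Both were picked for their role after their values were seen. ARF2, an auxin response factor that limits seed size, had the highest FPKM of the list summed over both genotypes, at 96.2 FPKM in mee45 and 98.6 FPKM in Col-0, and did not pass the test. The polycomb genes MEA, FIS2, FIE and MSI1, which silence early endosperm genes, had log2 values of 0.51, 0.23, -0.29 and -0.06 without passing the test.

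Among the cytokinin oxidase genes, CKX2 had the highest level in both genotypes. It held 77.5% of the summed FPKM of the 7 cytokinin oxidase genes in mee45 and 69.9% in Col-0. The other 6 together had 12.6 FPKM in mee45 and 11.0 FPKM in Col-0, with 0 called higher, 1 called lower and a median log2 value of 0.23. Over all genes tested 6.67% were called higher and 9.15% lower, and 6 genes are too few to set against these shares. CKX3 was the member that fell, to 0.763 FPKM in mee45 against 1.55 FPKM in Col-0 (log2 -1.02, adjusted p = 0.0223 in the authors' deposited table). CKX6, the next most abundant of the family, had 6.18 FPKM in mee45 and 4.99 FPKM in Col-0 and did not pass the test.

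Of 17 cytokinin synthesis genes tested, 1 was called higher, 1 lower and 15 neither, with a median log2 value of 0.10, and LOG2 was at 0 counts in both genotypes. These counts are near the shares over all genes tested, 6.67% higher and 9.15% lower. IPT4 rose, with 1.65 FPKM in mee45 and 0.837 FPKM in Col-0 (log2 0.98, adjusted p = 0.0389 in the authors' deposited table). IPT6 fell to 1.78 FPKM in mee45 against 14.2 FPKM in Col-0 (log2 -2.99, adjusted p = 6.05e-10 in the authors' deposited table). Both encode isopentenyltransferases, the enzymes of the first step of cytokinin synthesis. LOG1, an activating enzyme of cytokinin precursors, was the most abundant, at 59.2 FPKM in mee45 and 53.9 FPKM in Col-0 without passing the test, and 0 of the 3 cytokinin receptor genes were called, AHK3 being the most abundant at 29.2 FPKM in mee45 and 27.9 FPKM in Col-0.

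**Figure D4:**
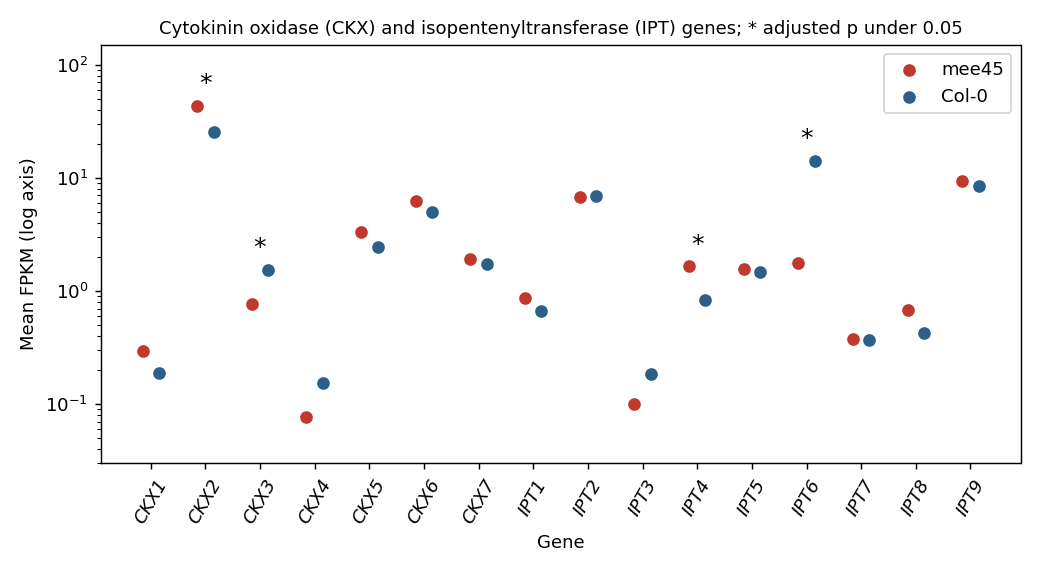
Mean FPKM (log axis) of the cytokinin oxidase genes CKX1 to CKX7 and the isopentenyltransferase genes IPT1 to IPT9, mee45 left of Col-0; stars mark an adjusted p under 0.05 in the authors' deposited table. CKX2 is the highest of all in both genotypes and higher in mee45, and IPT6 has 1.78 FPKM in mee45 and 14.2 FPKM in Col-0.

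The gene families of the HAIKU proteins gave the following counts, where 6.67% of all genes tested were called higher and 9.15% lower. Of 13 other group I WRKY genes, 0 were called higher, 3 lower and 10 neither, with a median log2 value of -0.18. At a share of 6.67%, 0 of 13 called higher sets no contrast with the rise of MINI3. WRKY33, WRKY26 and WRKY25, which act in stress responses, had log2 values of -2.32, -1.30 and -1.25. MINI3 made up 1.73% of the family's summed FPKM in mee45 and 0.753% in Col-0. This share also depends on the other 13 genes, which together had 138.8 FPKM in mee45 and 193.9 FPKM in Col-0. Of these, WRKY33 alone had 13.6 FPKM in mee45 and 68.1 FPKM in Col-0.

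Of 29 tested genes for other VQ proteins, 3 were called higher, 11 lower and 15 neither, where 6.67% of all genes tested were called higher and 9.15% lower. Their median log2 value was -0.41, beside 0.05 for IKU1. The 29 include SIB1, MKS1 and CAMBP25, which were relabelled after their values were seen. Without these, 3 of 26 were called higher and 8 lower, with a median of -0.39. SIB1, which binds sigma factors and WRKY33, CAMBP25, a calmodulin-binding protein, and the VQ genes AT5G46780 and AT3G56880 had log2 values of -0.84, -0.68, -1.15 and -0.58. The last of these was also the most abundant, at 93.6 FPKM in mee45 and 140.3 FPKM in Col-0. IKU1 ranked at place 5 of 32 by FPKM in mee45 and at place 6 in Col-0.

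In both genotypes IKU2 had the lowest level of the 16 listed receptor kinases of its subfamily, a list not checked for completeness. SHB1 was among the lowest 2 of 11 in its family, in both genotypes, with AT2G03250 at 0.0133 FPKM in mee45 and 0.04 FPKM in Col-0, where the pair was level. Of the 15 other LRR XI receptor kinases listed, 3 were called higher, 3 lower and 9 neither, with a median log2 value of 0.04. Over all genes tested 6.67% were called higher and 9.15% lower, which also stands beside the PHO1 counts below. BAM2 and BAM3, relatives of the meristem receptor CLAVATA1, and TDR, a receptor of vascular tissue, rose with log2 values of 1.00, 0.93 and 0.53, and RLK7 fell with -1.20. PEPR1, a receptor of danger peptides, was the most abundant, at 124.8 FPKM in mee45 and 135.1 FPKM in Col-0, and did not pass the test. Of 10 other PHO1 family genes, 0 rose, PHO1 itself, a phosphate exporter, fell (log2 -0.79), and 9 did not pass the test, with a median log2 value of -0.22. The most abundant of these, AT2G03240, had 22.3 FPKM in mee45 and 26.8 FPKM in Col-0 and did not pass the test.

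**Figure D5:**
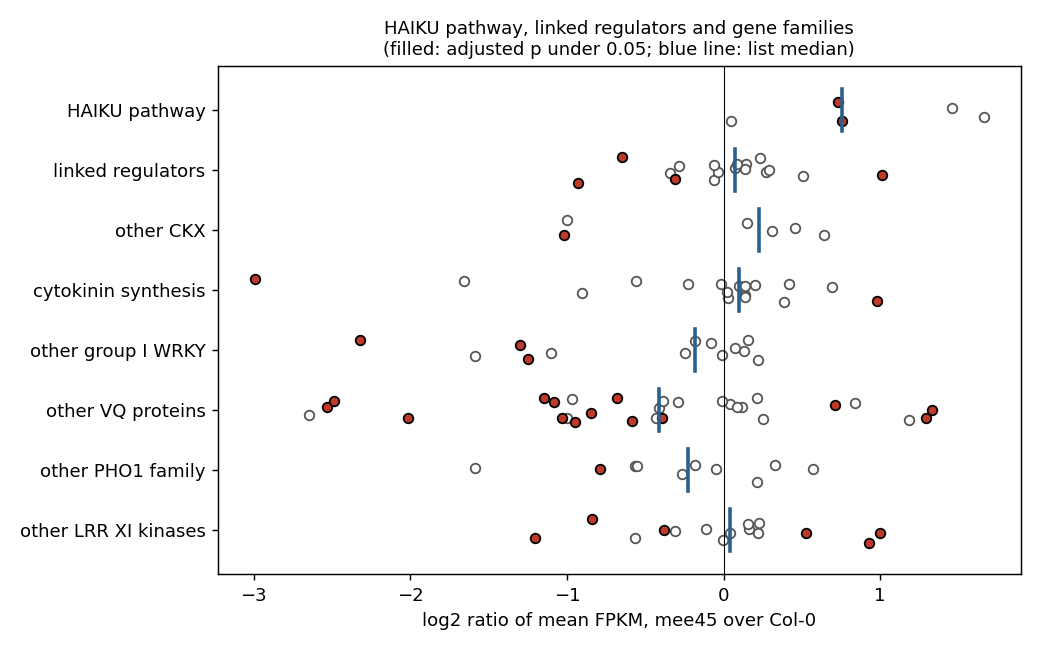
The log2 value of mean FPKM in mee45 over that in Col-0, for every tested gene listed for the HAIKU pathway, the linked regulators, cytokinin oxidases and synthesis, and the families of the members (members left out of their own families). Filled points have an adjusted p under 0.05 in the authors' deposited table and blue lines are medians. The HAIKU median is 0.76 and the other medians drawn lie between -0.41 and 0.23, but with log2(FPKM + 1), not drawn, the HAIKU median is 0.09, below the 0.11 of the other cytokinin oxidases. Tissue marker lists, also not drawn, reach beyond that range, with medians of 0.38 for endosperm, 0.54 for pollen and -0.48 for embryo.

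Marker genes of the tissues in a silique were also called in both directions, where 6.67% of all genes tested were called higher and 9.15% lower. Of 11 for the endosperm, 5 were called higher, 3 lower and 3 neither, with a median log2 value of 0.38 and a summed level of 119.7 FPKM in mee45 and 129.0 FPKM in Col-0. AGL36 and AGL90, type I MADS-box genes of the young endosperm, rose with log2 values of 1.69 and 1.66, whereas ZOU and the subtilase gene ALE1 (log2 -0.82) fell; SUC5, a sucrose carrier, was the most abundant, at 34.8 FPKM in mee45 and 44.6 FPKM in Col-0 without passing the test. AGL36 and AGL90 are close in sequence, so the division of reads between them is uncertain.

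Of 9 embryo markers, 0 were called higher, 5 lower and 4 neither, with a median log2 value of -0.48. Their summed level was 138.6 FPKM in mee45 and 178.1 FPKM in Col-0. The shares over all genes tested, 6.67% higher and 9.15% lower, stand beside each count here. FUS3, LEC1, LEC2 and WOX8, regulators of embryo identity and maturation, fell with log2 values of -1.88, -0.49, -0.69 and -0.74, and ATML1, an epidermis factor, was the most abundant, at 73.2 FPKM in mee45 and 69.0 FPKM in Col-0 without passing the test. Of 8 seed coat markers 2 rose and 3 fell, with 865.8 FPKM in mee45 and 1024 FPKM in Col-0, and of 6 silique wall markers 2 rose and 1 fell, with 434.5 FPKM in mee45 and 417.0 FPKM in Col-0. GATL5, TT10 and MUM4 of the seed coat fell with log2 values of -1.84, -1.61 and -1.16, TT12 rose with 0.95, and BAN, an enzyme of tannin synthesis, was the most abundant, at 572.9 FPKM in mee45 and 465.5 FPKM in Col-0 without passing the test. IND and SHP1, regulators of fruit opening, rose with log2 values of 0.69 and 0.40, and SHP2 fell with -0.33. Of these 3, IND alone was still called at an adjusted p under 0.01, and likewise with a fold of at least 1.5. Of the 5 embryo markers 3 were called under each setting, but not the same 3. FUS3 and WOX8 were called under both, LEC1 only at the stricter adjusted p and LEC2 only with the fold. The 2 pollen markers, VGD1 and AT59, did not pass the test, and together had 82.8 FPKM in mee45 and 54.6 FPKM in Col-0. No marker of these 5 lists was at 0 counts in either genotype. The part of tissue make-up or of seed stage in the rises of MINI3 and CKX2 was not tested.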

How the data were processed

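PolyA RNA of 3 mee45 and 3 Col-0 silique samples was sequenced as paired ends, per the labels' protocols. The submitters' processing notes name the build TAIR10 and the tools edgeR, RSEM, Cufflinks, TopHat2 2.0.3.12, Bowtie2 2.2.8 and fastp 0.18.0; their roles and options are not stated there. The deposited estimated counts and FPKM are the authors' means per genotype; 96.1% of values, times 3, were whole within 0.03 counts. Mean depth per library was 20530953 counts in mee45 and 20242476 in Col-0. The p-values, adjusted p-values and log2 fold changes used for calls are those of the authors' deposited table, and its adjusted p equals a Benjamini-Hochberg adjustment over its 25434 genes; the other 6174 had 0 counts in both genotypes.

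No new test between genotypes was made, since genotype means hold no spread between libraries. Ratios of summed counts were scaled by total counts and given exact (Clopper-Pearson) 95% intervals, and single levels exact Poisson intervals, with Python 3.11.15 and SciPy 1.17.1. These intervals cover counting error only, as PCR copies are not told apart. Genes of like depth are those within 1.2-fold in summed count, with 1.5-fold as an alternative. The ratio intervals and the Benjamini-Hochberg step were tested on simulated data. The simulated counts held counting error only and were for genes deeper than SHB1 and IKU2, so intervals at the depth of that pair were not tested. Gene positions and sequence are from RefSeq TAIR10.1, to which 30622 identifiers matched.

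The members, gene lists and alternatives were chosen with earlier results of these data known. The depth widths (another width between these was tried first), the W-box core with its windows, and the IKU2 stretch were chosen after the values were seen. So were new symbols for 3 entries of the VQ list (CAMBP25, MKS1 and SIB1, identifiers unchanged), which the symbol check had first dropped. Of 153 genes in 14 lists, 4 entries that the files and reference do not annotate under the listed name or family were left out (VQ2, VQ6, and the intended markers AGL40 and LAT52), and members were left out of their own families. Named are all members, and in each list up to 4 called genes with the smallest p and the most abundant gene. Of the nearest neighbours of the members, only those with values or overlapping a member are named. Others named were chosen after their values were seen. With genotype means there is no pattern by which genes most like a member could be ranked.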

Additional observations from a re-analysis of the deposited data

How the results depend on the processing

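No paired analysis was possible because the values used are means of a genotype; likewise fits with edgeR or DESeq2, with a replicate block or without single libraries were not run. Of the 2 members called higher, MINI3 was no longer called at an adjusted p under 0.01, leaving 1, and both were called with a fold of at least 1.5, at an unadjusted p under 0.05 and with a minimum mean count of 10 in either or both genotypes. Genes higher in mee45 over the whole table numbered 1696, and 1078 at an adjusted p under 0.01, 2889 at an unadjusted p under 0.05 and 1023 with a fold of at least 1.5; genes lower stayed within 1.5 times of 2326 under the alternatives run. At an adjusted p under 0.01, embryo markers called lower numbered 3 in place of 5, and silique wall markers 1 higher and 0 lower in place of 2 and 1, and the counts were the same with a fold of at least 1.5. At that stricter threshold the calls of BZR1, CKX3 and IPT4 were also lost, and other LRR XI receptor kinases called lower numbered 1 in place of 3. With a fold of at least 1.5 the calls of BZR1, TDR and AT3G56880 were lost. Seed coat markers called higher then numbered 1 in place of 2. Scaling of counts, to their totals or to the median ratio, kept the log2 value of each member above 0, at 0.75 and 0.74 for CKX2 and 0.73 and 0.72 for MINI3. A pseudocount shrinks low genes by construction. With log2(FPKM + 1), IKU2 had 0.06, SHB1 0.09 and MINI3 0.48, and the median of the 5 members was 0.09, against 0.58 with log2(FPKM + 0.1). Alternatives added after the values were seen gave 8 lower VQ genes in place of 11 without the 3 relabelled entries, and a smallest called rise at the depth of IKU2 of 4.88-fold within 1.5-fold in count in place of 7.69-fold within 1.2-fold. Depth limits what can be said of SHB1 and IKU2, with 20 and 17 summed counts over both genotypes.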

Other observations

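Values were at hand for 5 genes next to the HAIKU genes on the chromosome. MORF6 (AT2G35240), an RNA editing factor that ends 430 bases from IKU1, had 39.3 FPKM in mee45 and 38.3 FPKM in Col-0. FKBP53 (AT4G25340), a histone chaperone 193 bases from SHB1, had 27.5 FPKM in mee45 and 25.5 FPKM in Col-0, far above the 0.11 and 0.04 FPKM of SHB1 itself. TBL18 (AT4G25360), 2929 bases away on its other side, had 8.39 FPKM in mee45 and 8.50 FPKM in Col-0. Of the 5, BCAT4, which overlaps IKU2, was the 1 called, lower in mee45, where 15.8% of all genes tested were called.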
